A study of Mus musculus with 24 samples.

Results

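The genes described here act in the presentation of peptides by MHC class I. They were Nlrc5, H2-K1, B2m, Tap1, Tap2, Tapbp, Psmb8, Psmb9, Psmb10 and Erap1, 10 of the 12647 named genes tested. They were chosen by the known role of their products, with no measured value in the rule but with earlier results of these data known. Each was found on the arrays through the accession of its probes. All 10 were measured, by 12 probes in all (2 each for H2-K1 and Nlrc5), and every one of these probes was well above background on all 24 arrays.

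Dendritic cells were grown for 9 days from the bone marrow of mice on a C57BL/6 background, with the human form of the growth factor Flt3 ligand at 100 ng/ml. Such cultures hold plasmacytoid dendritic cells beside conventional ones. The mice were wild type (WT), lacked the transcription factor Irf5 (Irf5-KO), lacked the Src-family kinase Lyn (Lyn-KO), or lacked both (Lyn/Irf5 DKO, here DKO). Cells of each genotype were harvested unstimulated or after 6 h with 150 nM of CpG-B ODN (1668), a synthetic DNA that activates Toll-like receptor 9. That made 8 groups of 3 biological replicates, and total RNA of each was hybridised to a 1-colour Agilent array. The labels do not say which part of either gene was deleted or how many animals a culture came from.

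In a cell, MHC class I molecules display short peptides cut from cytosolic proteins to CD8+ T cells. The proteasome makes most of these peptides, and in immune cells and under interferon its catalytic subunits are replaced by the immunoproteasome subunits, which are the products of Psmb8, Psmb9 and Psmb10. The peptides cross into the endoplasmic reticulum through the transporter TAP, a dimer of the Tap1 and Tap2 products, are trimmed there by the Erap1 product, and are loaded with the help of tapasin (Tapbp) onto a heavy chain such as H2-K1 bound to beta-2-microglobulin (B2m). Nlrc5 encodes a transactivator that acts at the promoters of class I and related genes together with RFX, CREB and NF-Y proteins. Dendritic cells use this pathway to prime CD8+ T cells, also with antigen taken up from outside (cross-presentation).

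Stretches of promoter are shown for B2m, H2-K1, the Psmb9 and Tap1 pair, and Erap1. The first 3 stretches hold the X2 and CCAAT motifs described below, and no motif of RFX was searched. All 10 genes rose with CpG-B, so the stretches were not singled out by the response. The sequences are RefSeq's, build GRCm38.p6, whose promoter table had entries for 8 of the 10 genes. Capitals mark matches on either strand to GAAA, any 2 bases and GAAA again (an interferon-stimulated response element, ISRE), to the kappaB consensus bound by NF-kB, to TGACG (core of the X2 box) or to CCAAT (bound by NF-Y). No match overlapped another except that H2-K1 had 2 kappaB matches shifted by 1 base. The lines give B2m at chr2:122147437-122147686 (plus strand), H2-K1 at chr17:34000348-34000597 (minus strand), the stretch between the divergent starts of Psmb9 and Tap1 at chr17:34187331-34187555 (plus strand, towards Tap1), and 30 bases around the start of Erap1 at chr13:74639839-74639868 (plus strand).
B2m: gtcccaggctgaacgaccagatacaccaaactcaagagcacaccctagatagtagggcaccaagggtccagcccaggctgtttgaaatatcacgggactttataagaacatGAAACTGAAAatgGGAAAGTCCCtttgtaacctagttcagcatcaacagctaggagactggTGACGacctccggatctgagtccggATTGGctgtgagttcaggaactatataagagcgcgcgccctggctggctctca
H2-K1: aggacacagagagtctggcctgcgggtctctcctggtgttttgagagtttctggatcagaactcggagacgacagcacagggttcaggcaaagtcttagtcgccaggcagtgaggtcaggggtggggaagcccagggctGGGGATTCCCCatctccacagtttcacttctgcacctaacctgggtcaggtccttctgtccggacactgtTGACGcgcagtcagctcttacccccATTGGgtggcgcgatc
Psmb9-Tap1: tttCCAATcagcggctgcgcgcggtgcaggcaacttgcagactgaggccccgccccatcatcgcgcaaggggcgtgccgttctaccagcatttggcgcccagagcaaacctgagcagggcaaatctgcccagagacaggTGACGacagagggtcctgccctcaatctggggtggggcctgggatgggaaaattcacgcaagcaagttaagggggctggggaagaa
Erap1: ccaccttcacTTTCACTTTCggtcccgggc

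The motifs were searched in the full windows of the table, from 250 bases before to 50 after each start. B2m held a match to each of the 4 motifs, with the ISRE at bases 112 to 121 and the kappaB match at 125 to 134. The upstream stretch of H2-K1 held the kappaB, X2 and CCAAT matches and no match to the strict ISRE letters. That does not show that H2-K1 lacks an interferon response element, since looser forms of the ISRE were not searched. Psmb9 and Tap1 lie head to head, with starts 226 bases apart, and the stretch between them held 1 X2 core and 1 CCAAT box. Erap1 held 1 ISRE match, across its start, and none of the other 3. Of all 32851 windows of the table, 3.44% held the ISRE letters, 4.51% the kappaB consensus, 20.8% TGACG and 37.4% CCAAT, so the 2 short motifs are common by themselves. Psmb8, at a start of its own, held a match to the interferon-gamma activated site TTCNNNGAA, which 8.3% of the windows held, and Tapbp held 2 CCAAT boxes. Psmb10, which rose with CpG-B, held none of the 5 motifs, and the constitutive Psmb5 and Psmb6 held 1 and 2 X2 cores. A match is a run of letters and no measurement of binding, and an element with other letters or spacing would not be found. Of the 10 genes, 6 are on chromosome 17, and 4 of these (Psmb9, Tap1, Psmb8 and Tap2, in this order) are neighbours with no other protein-coding gene between them.

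Levels are given as log2 of the processed signal minus the 75th percentile of the array, so that 0 is the signal of a probe at that percentile, and levels of different probes are not compared. The 24 arrays had 41.0% to 53.8% of their spots well above background and no saturated spot, and their number limits the precision. The 6 markers of dendritic cells and the 10 of plasmacytoid dendritic cells were well above background on every array. The Lyn probe was lower in Lyn-KO: the difference from WT was -1.82 ± 0.09 on the log2 scale (SE, n = 3 arrays a group) without CpG-B and -2.44 ± 0.09 with it (limma adjusted p = 8.43e-10 and 5.82e-12). The Irf5 probe did not follow its label: Irf5-KO minus WT was -0.30 ± 0.09 unstimulated and 0.64 ± 0.09 with CpG-B (limma adjusted p = 0.161 and 2.8e-05). Where that probe lies relative to the deletion is not known, so genotypes lacking Irf5 are named by their labels only. The DKO array of replicate 2 without CpG-B stood apart: it had the highest level of all 12 unstimulated arrays for 10 of the 10 genes. In bulk RNA, a change in the share of cells of a type and a change of RNA per cell cannot be told apart.

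With CpG-B, all 10 genes rose in each of the 4 genotypes, and for all 10 every stimulated array was above every unstimulated array of its genotype. In WT cells 31.2% of all 20208 features tested rose, and the shares were 31.6% for Irf5-KO, 32.8% for Lyn-KO and 34.6% for DKO (limma, Benjamini-Hochberg adjusted p under 0.05, the rule for a call throughout). Groups that did not overlap, with CpG-B higher, made up 32.6%, 34.8%, 34.9% and 37% of the features in the same order. The median change of the 10 genes was 1.21, 1.36, 1.26 and 1.3 on the log2 scale, against -0.03, -0.02, -0.01 and 0.02 for all features. All changes were positive within each of the 3 slides, which each held 1 array of every group, and the smallest within a slide was 0.18 (Erap1 in WT).

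**Figure D1:**
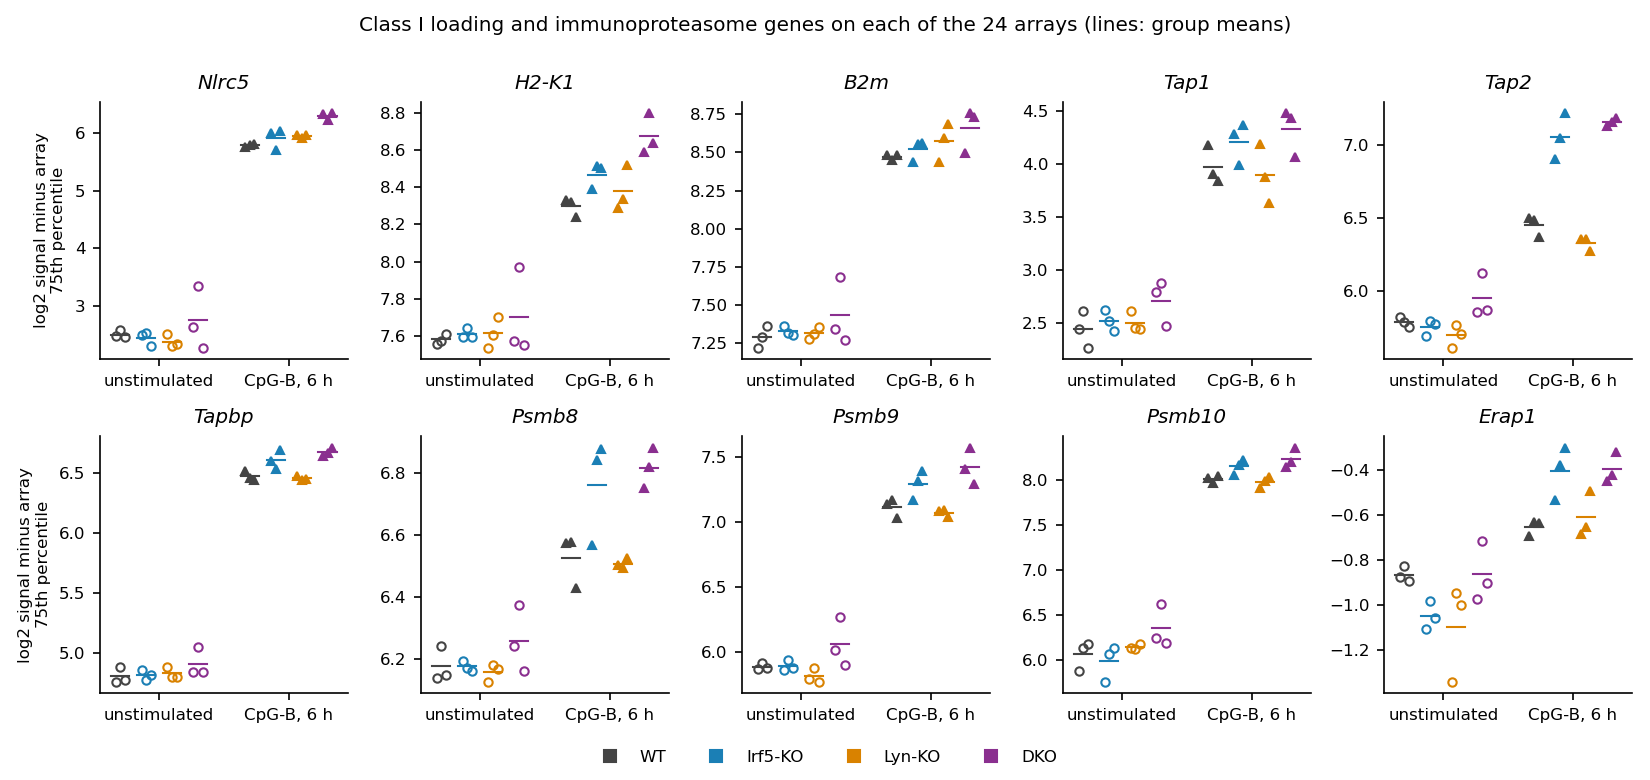
Each panel plots 1 gene: the log2 signal minus the 75th percentile of the array (y axis) on each of the 24 arrays, open circles unstimulated and filled triangles with CpG-B for 6 h, coloured by genotype, with a line at each group mean (n = 3 arrays). In all 10 panels the triangles lie above the circles of the same genotype, and 1 DKO circle (replicate 2) is the highest of the unstimulated arrays. The y axes differ between panels.

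Nlrc5, the transactivator, rose most. In WT cells its unstimulated levels were 2.46, 2.57 and 2.45 and its levels with CpG-B 5.76, 5.80 and 5.82, a change of 3.30 ± 0.17 on the log2 scale or 9.85-fold (limma adjusted p = 1.58e-12). The changes were 3.57 in DKO, 3.58 in Lyn-KO and 3.48 in Irf5-KO, each with an SE of 0.17. The second Nlrc5 probe gave smaller changes in the same direction, 2.02 in WT and 2.50 in DKO (limma adjusted p = 1.8e-08 and 8.02e-10). The stimulated groups stood far apart from the unstimulated ones in every genotype. From highest to lowest, the group means with CpG-B were DKO 6.31 ± 0.07 (SD, n = 3), Lyn-KO 5.95 ± 0.02, Irf5-KO 5.92 ± 0.18 and WT 5.79 ± 0.03. Only the DKO arrays lay wholly above the next group, while Lyn-KO and Irf5-KO overlapped, as did Irf5-KO and WT. The 4 unstimulated groups, with means from 2.37 to 2.74, overlapped from one to the next.

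The light and heavy chain of the class I molecule rose by less. B2m, the light chain shared by all class I molecules, was at 7.22, 7.29 and 7.36 in unstimulated WT cells and at 8.48, 8.45 and 8.48 with CpG-B. Its change was 1.18 ± 0.09 or 2.27-fold in WT (limma adjusted p = 8.35e-10), and 1.19, 1.26 and 1.23 in Irf5-KO, Lyn-KO and DKO. H2-K1, a classical heavy chain, went from 7.56, 7.57 and 7.61 to 8.33, 8.32 and 8.24 in WT, a change of 0.71 ± 0.09 or 1.64-fold (limma adjusted p = 9.8e-07). Neither gene's stimulated and unstimulated arrays overlapped. The change of H2-K1 was 0.97 in DKO, 0.85 in Irf5-KO and 0.76 in Lyn-KO, and its second probe gave 0.97 to 1.13 over the genotypes. The heavy chain genes are near-identical in sequence, so a probe may also take up signal from another of them. With CpG-B the order of B2m was DKO, Lyn-KO, Irf5-KO and WT with every neighbour overlapping, and that of H2-K1 was DKO at 8.67 ± 0.11, Irf5-KO, Lyn-KO and WT at 8.30 ± 0.05, where DKO alone did not overlap the next group.

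The other class I heavy chains on the arrays did the same: in WT 10 of the 11 tested rose and none fell (median change 1.03), where 31.2% and 37.2% of all features did. The non-classical genes H2-T24 and H2-T10 rose most, by 3.23 and 2.81, H2-Q8 by 2.08, and the classical H2-D1 by 0.76. H2-M3, which presents formylated peptides, was the exception at -0.16 in WT, where quantile normalisation and normexp background correction gave a called fall (-0.25 under each), while in DKO it rose by 0.51. In Irf5-KO and DKO 11 of 11 rose, and 9 of 11 in Lyn-KO.

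Among the genes of peptide transport and loading, the changes of tapasin and Tap1 in WT were above that of Tap2. Tapbp, which bridges TAP and the empty class I molecule, was at 4.76, 4.88 and 4.77 unstimulated and at 6.52, 6.46 and 6.44 with CpG-B in WT. The change was 1.67 ± 0.06 or 3.19-fold (limma adjusted p = 5.9e-15), and between 1.63 and 1.80 in the mutants. Tap1 went from 2.45, 2.61 and 2.27 to 4.18, 3.90 and 3.84, a change of 1.53 ± 0.15 or 2.89-fold (limma adjusted p = 3.43e-08). Stimulated and unstimulated levels were well separated for both genes. Tap1 changed by 1.61 in DKO, 1.69 in Irf5-KO and 1.39 in Lyn-KO, and its 4 stimulated groups overlapped from one to the next.

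Tap2, the partner of Tap1 in the transporter, split the genotypes in 2 pairs. In WT it went from 5.82, 5.78 and 5.75 to 6.50, 6.49 and 6.37, a change of 0.67 ± 0.08 or 1.59-fold (limma adjusted p = 2.26e-07). In Lyn-KO it went from 5.61, 5.77 and 5.70 to 6.36, 6.35 and 6.27. In the arrays labelled Irf5-KO it went from 5.69, 5.79 and 5.77 to 6.91, 7.05 and 7.22, and in DKO from 5.86, 6.12 and 5.86 to 7.13, 7.16 and 7.19. All 6 stimulated arrays of the genotypes lacking Irf5 lay above all 6 stimulated arrays of the other genotypes. The changes were 1.31 ± 0.08 or 2.48-fold in Irf5-KO and 1.22 ± 0.08 or 2.32-fold in DKO, against 0.63 ± 0.08 or 1.55-fold in Lyn-KO (limma adjusted p = 1.43e-11, 3.75e-11 and 4.61e-07). Quantile normalisation lowered the WT change to 0.46 and kept the call. Normexp background correction lowered the Lyn-KO change to 0.36 and kept the call.

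Of the other genes of the loading complex and of its chaperones, 2 of 6 rose in WT and 3 fell, shares near the 31.2% and above the 37.2% of all features that rose and fell. Tapbpl, a tapasin-related peptide editor, rose by 1.81 and Pdia3, the thiol oxidoreductase of the loading complex, by 0.32. The glucosylation enzyme gene Uggt1 fell by 0.87, Ganab by 0.34 and calnexin (Canx) by 0.21, and calreticulin (Calr) was at 0.11 without a call.

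**Figure D2:**
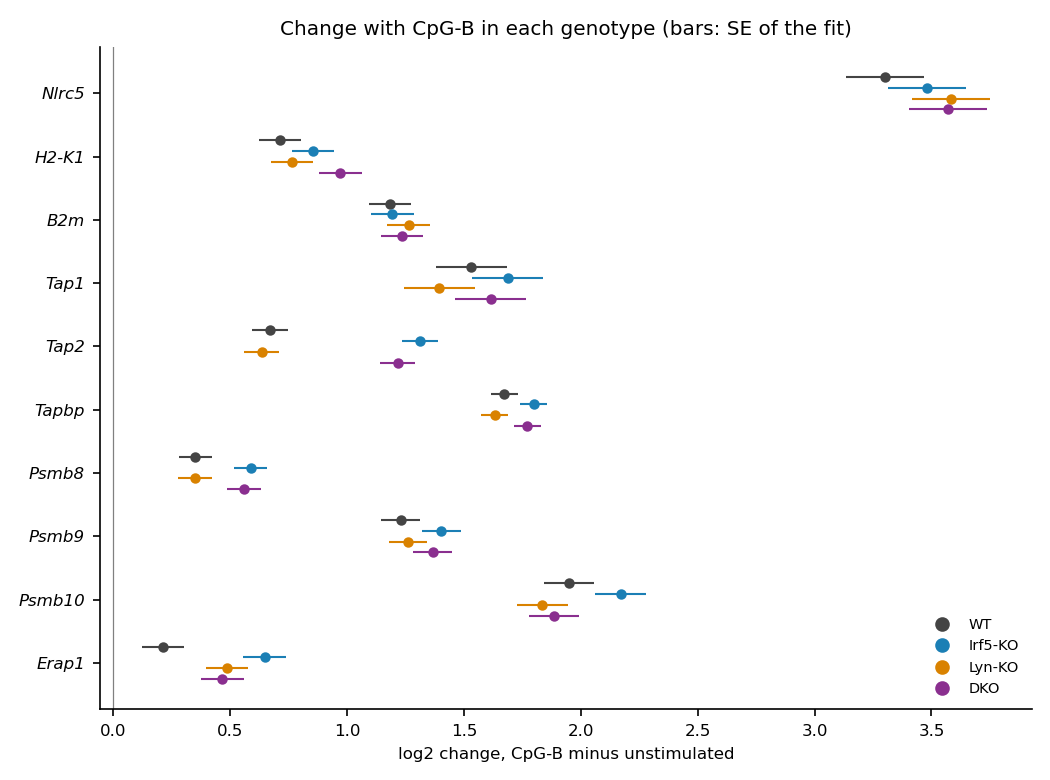
The log2 change with CpG-B (x axis) of each of the 10 genes (y axis), 1 point for each genotype with the SE of the fit, from 3 stimulated and 3 unstimulated arrays. Nlrc5 lies farthest right, at 3.30 to 3.58, Erap1 and Psmb8 nearest to 0 in WT, and Tap2 has the points of Irf5-KO and DKO (1.31 and 1.22) apart from those of WT and Lyn-KO (0.67 and 0.63).

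The 3 catalytic subunits of the immunoproteasome rose by unequal amounts. Psmb10 (beta 2i) was at 5.88, 6.13 and 6.18 in unstimulated WT cells and at 8.03, 7.97 and 8.04 with CpG-B, a change of 1.95 ± 0.11 or 3.86-fold (limma adjusted p = 6.54e-12). Psmb9 (beta 1i) went from 5.87, 5.92 and 5.88 to 7.14, 7.17 and 7.03, a change of 1.23 ± 0.08 or 2.34-fold (limma adjusted p = 1.05e-10). Psmb8 (beta 5i) went from 6.14, 6.24 and 6.15 to 6.58, 6.58 and 6.43, a change of 0.35 ± 0.07 or 1.27-fold (limma adjusted p = 0.000246). No subunit's stimulated and unstimulated WT arrays overlapped, although those of Psmb8 came close. Psmb8 rose by 0.59 in Irf5-KO and 0.56 in DKO and by 0.35 in Lyn-KO. Under quantile normalisation its change lost the call in WT (0.16, limma adjusted p = 0.0711) and in Lyn-KO (0.15, adjusted p = 0.0843), and normexp background correction gave 0.17 in both (adjusted p = 0.0692 and 0.0756). Quantile normalisation lowered the change to 0.37 in Irf5-KO and 0.26 in DKO, both still called.

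The constitutive counterparts that these subunits replace rose as well. In WT the changes were 0.45 for Psmb5, which Psmb8 replaces, 0.28 for Psmb6, which Psmb9 replaces, and 0.36 for Psmb7, which Psmb10 replaces. All 3 were called in each genotype, but in WT Psmb6 lost its call under normexp background correction (0.05). In WT, 8 of the 11 other subunits of the 20S core rose and 1 (Psma1, -0.24) fell, where 31.2% and 37.2% of all features did. Psma6, Psma5 and Psma4 rose most, by 1.15, 1.14 and 1.06, and Psmb1 stayed at -0.03 with no call. Of the 18 genes of the 19S regulatory particle, 14 rose in WT and none fell, beside the same shares, with Psmd11 at 1.00 and Psmd7 at 0.93. That count depended on the scaling, as quantile normalisation gave 9 higher and 2 lower and normexp background correction 9 and 3. The genes of the interferon-inducible PA28 activator, which opens the core, rose by 1.22 (Psme1) and 1.63 (Psme2), whereas Pomp, an assembly chaperone of the core, fell by 0.48. The difference between immunoproteasome and other subunits was not tested.

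**Figure D3:**
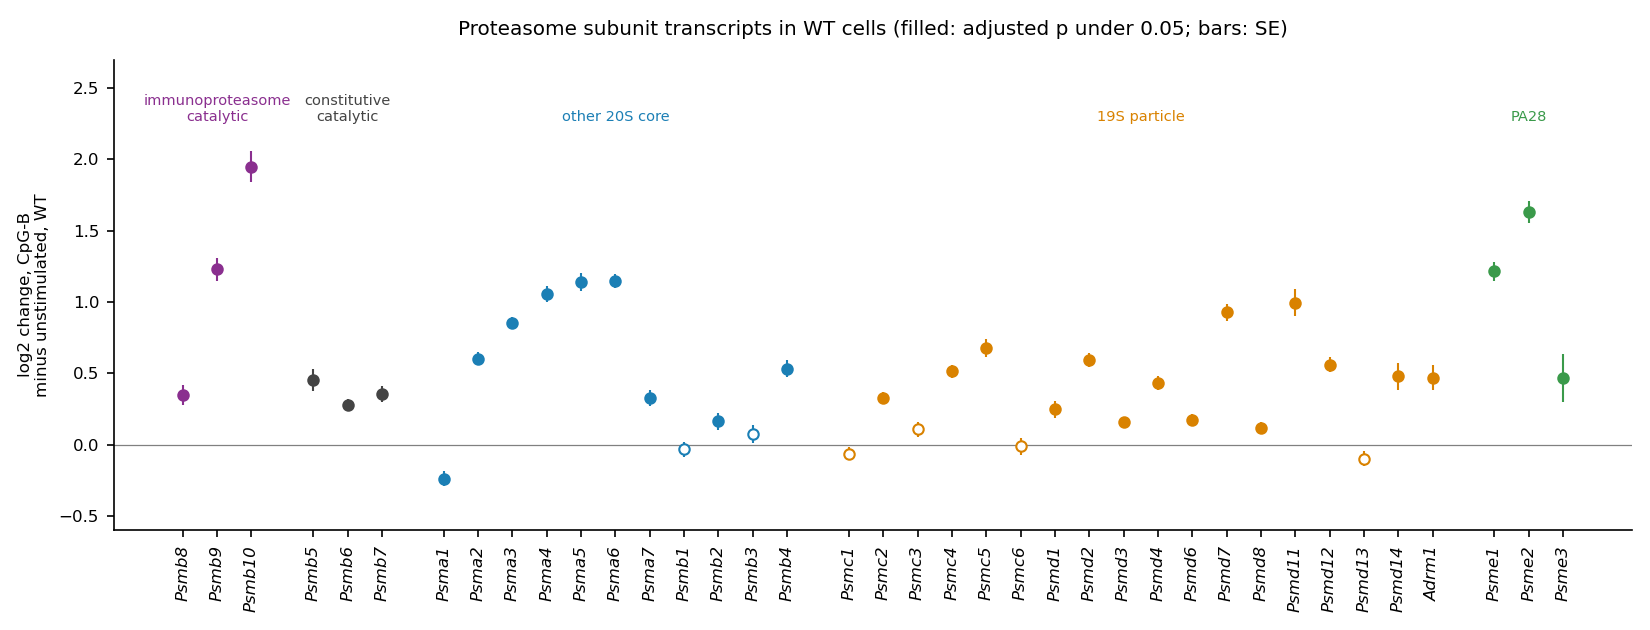
Log2 change with CpG-B in WT cells (y axis, with the SE of the fit, 3 stimulated and 3 unstimulated arrays) of proteasome subunit genes, grouped along the x axis as immunoproteasome catalytic, constitutive catalytic, other 20S core, 19S particle and PA28, with filled points for called changes. Psmb10 (1.95), Psme2 (1.63) and Psmb9 (1.23) are the highest points, and Psmb8 (0.35) lies at the level of the constitutive subunits Psmb5, Psmb6 and Psmb7 (0.45, 0.28 and 0.36).

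Erap1, the aminopeptidase that trims peptides in the endoplasmic reticulum, was a dim probe and rose least in WT. Its WT levels were -0.88, -0.83 and -0.89 unstimulated and -0.70, -0.63 and -0.64 with CpG-B, a change of 0.21 ± 0.09 or 1.16-fold (limma adjusted p = 0.0448). The groups did not overlap, yet leaving out any 1 of the 6 arrays ended the call, at changes of 0.20 to 0.23. Normexp background correction gave 0.11 (adjusted p = 0.23), and the call was also lost with no filter and with a trended prior (adjusted p = 0.0988 and 0.0563). In the mutants the rise was 0.47 ± 0.09 in DKO, 0.65 ± 0.09 in Irf5-KO and 0.49 ± 0.09 in Lyn-KO (limma adjusted p = 0.000144, 3.77e-06 and 9.72e-05), and normexp background correction lowered that in DKO to 0.31, still called. The mutants' own unstimulated levels entered those changes, at means of -0.86 in DKO, -1.05 in Irf5-KO and -1.10 in Lyn-KO against -0.87 in WT. Of 7 other peptidases that trim or destroy peptides, 4 rose in WT, among them Lap3 (1.60), Npepps (1.12) and Lnpep (1.08), which encodes the endosomal relative of Erap1. The other 3 fell, namely Nrd1 (-1.08), Tpp2 (-0.91) and Blmh (-0.10). Of all features, 31.2% rose and 37.2% fell in WT.

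Of 14 transcriptional regulators of class I genes, 11 rose in WT and 1 fell, where 31.2% and 37.2% of all features did. Stat2, which carries the type I interferon signal, rose by 2.91, Irf1 by 1.67 and Rfx5 by 0.97, while Rfxap, another RFX subunit, fell by 1.58. All 18 interferon-stimulated genes tested rose in each genotype, with a median change of 5.04 in WT. Markers of type 1 conventional dendritic cells, the main cross-presenting subset, moved the other way: 7 of 8 fell in WT, where 37.2% of all features did, and the summed scaled signal (signal over the 75th percentile of the array) went from 458 to 514 on the unstimulated to 211 to 242 on the stimulated arrays. The sum over 6 macrophage and monocyte markers went from at least 103 down to 21.4 to 23.3, and that over 9 neutrophil markers from 101 to 125 down to 76.5 to 83.2. The sum over 10 plasmacytoid markers went from 475 to 587 up to 726 to 781. Such sums are weighted towards the brightest markers, and RNA per cell may change as well as the share of cells. The part of these marker changes in the rise of the 10 genes was not tested.

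Without CpG-B, none of the 10 genes was called in any of 5 genotype comparisons. In either direction, 0.737% of all features were called for Irf5-KO against WT, 4.58% for Lyn-KO against WT, 6.78% for DKO against WT, 5.35% for DKO against Irf5-KO and 0.163% for DKO against Lyn-KO. At an unadjusted p under 0.05 (limma), the counts were 0, 1, 3, 2 and 4 of 10 in the same order, with Tap2 among them in all 3 comparisons of DKO. The shares of all features are of adjusted calls, so they give no baseline for unadjusted counts here or below. For Irf5-KO and Lyn-KO against WT the differences ran from -0.18 to 0.08 and from -0.23 to 0.08, and the 95% intervals of the 10 genes all lay within -0.41 to 0.40 and within -0.47 to 0.38. In DKO against WT all 10 differences were at or above 0, from 0.00 for Erap1 to 0.29 for Psmb10, with a median of 0.15, but 3 of them turned negative without 1 array, DKO replicate 2.

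Replicate 2 of the unstimulated DKO group was high for all 10 genes. Its Nlrc5 level was 3.33, against 2.62 and 2.27 on the other DKO arrays and 2.45 to 2.57 in WT. Its H2-K1 level was 7.97 against 7.58 and 7.55, and its B2m level 7.68 against 7.34 and 7.27. Within the slide of replicate 2, DKO minus WT was 0.77 for Nlrc5, and within the slide of replicate 3 it was -0.18. On this array the summed scaled signal of 18 interferon-stimulated genes was 78.4 against 47.6 and 37.3 on the other DKO arrays, while WT arrays had 69 to 125. The sum over 9 neutrophil markers was 57.9, between 87.9 and 42.7 on the other DKO arrays. Without this array, the DKO minus WT difference of Tap2 went from 0.16 to 0.08 and that of B2m from 0.14 to 0.02, those of H2-K1, Nlrc5 and Erap1 were -0.02, -0.05 and -0.07, none of the 10 genes was called for DKO against WT either, and DKO against Irf5-KO stayed at 0 called. Psmb10 came nearest to a call unstimulated: DKO minus Irf5-KO was 0.37 ± 0.11 (limma adjusted p = 0.056), and with the slide as a block the adjusted p was 0.0224. Without DKO replicate 2, the array that stood apart, Psmb10 was at 0.24 (adjusted p = 0.273). Without DKO replicate 3 it was called (0.45, adjusted p = 0.0342), as was Nlrc5 (0.54, adjusted p = 0.0377), and without Irf5-KO replicate 3 Psmb10 was called at 0.44 (adjusted p = 0.0435).

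With CpG-B, Tap2 was higher in genotypes lacking Irf5 than in genotypes with Irf5. Calls of the other genes depended on the comparison or the processing, and all differences were below 2-fold. For Irf5-KO against WT, 2 of 10 were higher and none lower, where 14.4% of all features were higher and 11.1% lower. For DKO against Lyn-KO, a comparison of the same kind that shares no array with it, 6 of 10 were higher and none lower, where 16.8% and 14.7% of all features were. Over the alternatives that kept all arrays, that count ran from 4 to 8. Tap2 and Psmb8 were the genes called in both comparisons. For DKO against WT 7 of 10 were higher and none lower (24.9% and 19.9% of all features), but under quantile normalisation and under normexp background correction 3 of 10 were higher. For Lyn-KO against WT no gene was called (13.9% and 11.2% of all features), the differences lay between -0.12 and 0.16, and no gene passed an unadjusted p under 0.05. For DKO against Irf5-KO no gene was called either (18.1% and 14.9% of all features), though all 10 differences were positive, from 0.01 to 0.39, and H2-K1 and Nlrc5 passed an unadjusted p under 0.05. Between Irf5-KO and WT the groups did not overlap for 6 of the 10 genes, between DKO and Lyn-KO for 8 and between DKO and WT for 9, where 20.9%, 23% and 30.6% of all features did the same upwards. These readings rest on the genotype labels, since the Irf5 probe did not follow them.

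Tap2 differed most. Its levels with CpG-B, given above, made Irf5-KO minus WT 0.61 ± 0.08 or 1.52-fold (limma adjusted p = 7.31e-06), DKO minus Lyn-KO 0.84 ± 0.08 or 1.78-fold (adjusted p = 8.87e-08) and DKO minus WT 0.71 ± 0.08 or 1.64-fold (adjusted p = 3.75e-07). Lyn-KO minus WT was -0.12 ± 0.08 (adjusted p = 0.258), although its 3 arrays lay below those of WT. The order of Tap2 with CpG-B was DKO 7.16 ± 0.03 (SD, n = 3), Irf5-KO 7.06 ± 0.16, WT 6.45 ± 0.07 and Lyn-KO 6.33 ± 0.05, and only DKO and Irf5-KO overlapped. Tap2's CpG-B response exceeded that of WT by 0.64 ± 0.11 in Irf5-KO and by 0.55 ± 0.11 in DKO (limma adjusted p = 0.00041 and 0.000671). The response in Irf5-KO differed from that in WT for 7.48% of all features upwards and 5.16% downwards, in DKO for 17.3% and 13.2%, and in Lyn-KO for 6.05% and 5.02%. In Lyn-KO none of the 10 genes passed, and Erap1 alone had an unadjusted p under 0.05 (limma, 0.27 ± 0.13, adjusted p = 0.207). These 3 comparisons share the WT arrays. Tap1, 2 genes away, differed by 0.24 ± 0.15 in Irf5-KO against WT (limma adjusted p = 0.295).

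Psmb8, the gene between Tap1 and Tap2, was at 6.57, 6.84 and 6.88 with CpG-B in Irf5-KO and at 6.75, 6.82 and 6.88 in DKO. WT had 6.58, 6.58 and 6.43 and Lyn-KO 6.50, 6.49 and 6.53. The lowest Irf5-KO array lay within the WT range, and the DKO arrays were above all arrays of WT and Lyn-KO. Irf5-KO minus WT was 0.24 ± 0.07 (limma adjusted p = 0.0198), a call that ended without Irf5-KO replicate 2 or 3 or without WT replicate 3 (adjusted p between 0.0929 and 0.107). It also ended under normexp background correction, with no filter and with only the groups compared (limma adjusted p = 0.0829, 0.0628 and 0.179). DKO minus Lyn-KO was 0.31 ± 0.07 and DKO minus WT 0.29 ± 0.07 (adjusted p = 0.00232 and 0.00246), and the latter lost its call under quantile normalisation (0.16, adjusted p = 0.0837) and normexp background correction (0.18, adjusted p = 0.0911).

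Psmb9 and Psmb10 ranked the genotypes alike with CpG-B, in the order DKO, Irf5-KO, WT and Lyn-KO. Irf5-KO lay above WT without overlap, and the other neighbours overlapped. That gap was narrow: for Psmb9 the lowest Irf5-KO array was at 7.172 and the highest WT array at 7.170. Irf5-KO minus WT was 0.18 ± 0.08 for Psmb9 and 0.14 ± 0.11 for Psmb10, neither called (limma adjusted p = 0.124 and 0.398). Psmb9 was 7.41, 7.58 and 7.30 in DKO, 7.17, 7.32 and 7.40 in Irf5-KO and 7.09, 7.09 and 7.04 in Lyn-KO. DKO exceeded Lyn-KO by 0.35 ± 0.08 and WT by 0.31 ± 0.08 (limma adjusted p = 0.00254 and 0.00433). The difference from WT lost its call under quantile normalisation (0.22, adjusted p = 0.0767) and normexp background correction (0.19, adjusted p = 0.0895). For Psmb10 the same differences were 0.26 and 0.23 without a call (adjusted p = 0.0804 and 0.1), and with the slide as a block the first had an adjusted p of 0.0392.

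Nlrc5 was higher in DKO than in WT by 0.52 ± 0.17 or 1.43-fold with CpG-B (limma adjusted p = 0.0162), and its second probe by 0.61 (adjusted p = 0.014). The first call was lost under quantile normalisation (0.40, adjusted p = 0.0709). Irf5-KO minus WT was 0.13 and Lyn-KO minus WT 0.16, neither called (adjusted p = 0.661 and 0.529). H2-K1 was 8.59, 8.80 and 8.64 in DKO, above all arrays of the other genotypes. It exceeded WT by 0.38 ± 0.09 and Lyn-KO by 0.29 ± 0.09 (limma adjusted p = 0.00214 and 0.0184). The second call ended on leaving out Lyn-KO replicate 1 or 2 or DKO replicate 2, with no filter and with only the groups compared (adjusted p between 0.0505 and 0.0958), and the second H2-K1 probe did not pass for DKO against Lyn-KO (0.21, adjusted p = 0.114). B2m exceeded WT by 0.19 ± 0.09 in DKO without a call (limma adjusted p = 0.0946). It was called without DKO replicate 1 (0.28, adjusted p = 0.0261), while normexp background correction lowered the difference to 0.05.

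Tapbp in DKO exceeded Lyn-KO by 0.22 ± 0.06 and WT by 0.20 ± 0.06 (limma adjusted p = 0.00684 and 0.00779), and both calls were lost under quantile normalisation (0.15 and 0.09) and under normexp background correction (0.14 and 0.11). Tap1 was higher in DKO than in Lyn-KO by 0.43 ± 0.15 (limma adjusted p = 0.0385), although the groups overlapped. That call ended on leaving out DKO replicate 1 or 2 or Lyn-KO replicate 2 or 3, under quantile normalisation and normexp background correction, with no filter and with only the groups compared (adjusted p between 0.0766 and 0.194). DKO minus WT was 0.35 ± 0.15 for Tap1 (adjusted p = 0.0679, or 0.0223 with the slide as a block). Erap1 was at -0.53, -0.38 and -0.30 in Irf5-KO and at -0.45, -0.42 and -0.32 in DKO, above all WT arrays in both. Irf5-KO minus WT was 0.25 ± 0.09 (limma adjusted p = 0.05, not under the threshold, and 0.0136 with the slide as a block), and DKO minus WT 0.26 ± 0.09 (adjusted p = 0.0278). The latter call ended under normexp background correction, with the median of detected probes as the scale, with no filter and without WT replicate 1 or 3 or DKO replicate 3 (adjusted p between 0.0516 and 0.101). DKO minus Lyn-KO was 0.21 for Erap1 (adjusted p = 0.0846, and 0.0276 with the slide as a block).

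**Figure D4:**
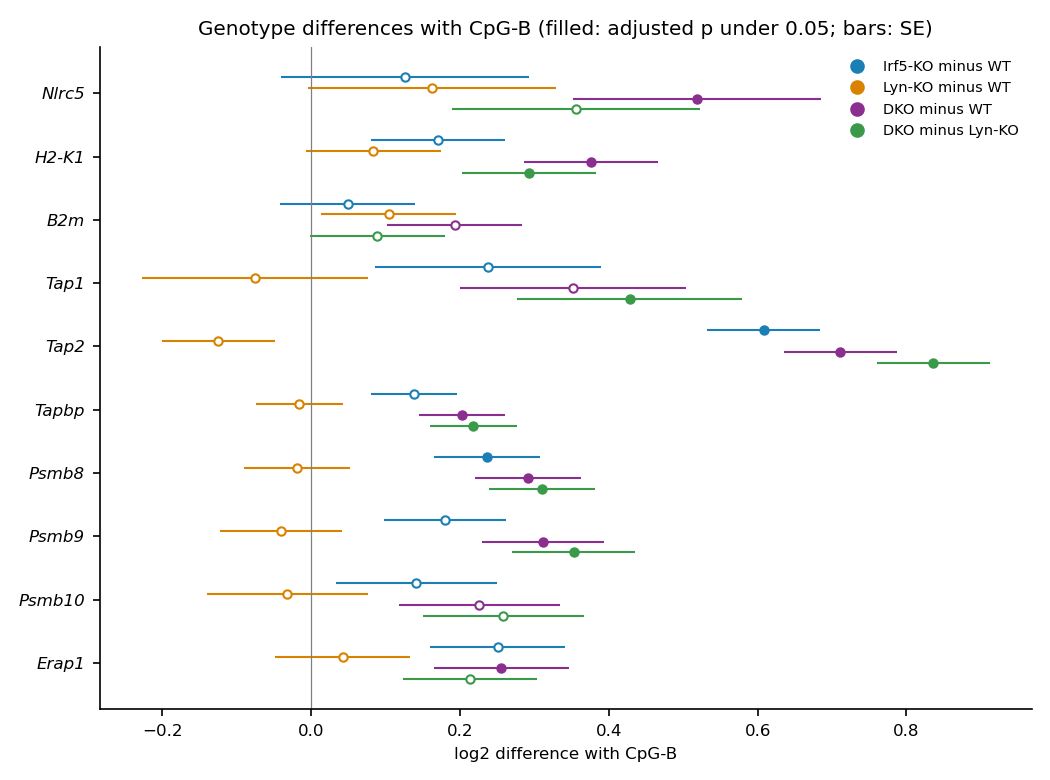
Log2 differences between genotypes with CpG-B (x axis, with the SE of the fit, 3 arrays a group) for each of the 10 genes (y axis), in 4 comparisons by colour, filled where the adjusted p is under 0.05. Tap2 has the 3 largest filled points (0.61, 0.71 and 0.84), and the points of Lyn-KO minus WT lie between -0.12 and 0.16 with none filled.

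Whether the loss of Lyn acted differently with and without Irf5 was tested as an interaction, (DKO minus Irf5-KO) minus (Lyn-KO minus WT) with CpG-B. None of the 10 genes was called (limma), where 3.61% of all features were, and Tap2 alone passed an unadjusted p under 0.05 (0.23 ± 0.11, adjusted p = 0.311). The values ran from -0.04 to 0.23.

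Other gene groups were compared between the same stimulated groups. Of 10 genes of the MHC class II pathway, 8 were higher in DKO than in WT and 7 in DKO than in Lyn-KO. Of all features, 24.9% and 16.8% were, and the peptide editor H2-DMa was at 1.22 and 0.88. Of 18 interferon-stimulated genes, 3 were higher in DKO than in Lyn-KO, a share near that 16.8%, and their median difference was 0.12 for DKO against WT and 0.17 for Irf5-KO against WT, with no call in either. Of the 11 other heavy chains, 4 were higher in DKO than in WT, beside the same 24.9%, among them H2-M3 (0.78) and H2-D1 (0.32). The cell type markers differed as well. The summed scaled signal of 10 B cell markers was 42.9 to 44.9 in WT, 50.9 to 60.8 in Irf5-KO, 24.2 to 25.1 in Lyn-KO and 15.4 to 16.9 in DKO with CpG-B. The sum over 8 type 1 conventional dendritic cell markers was 211 to 242, 132 to 148, 297 to 312 and 221 to 229 in the same order, and over 6 macrophage and monocyte markers 21.4 to 23.3, 35.1 to 39.5, 20.6 to 23.7 and 29.3 to 41.3. Over 10 plasmacytoid markers it was 726 to 781, 690 to 742, 1020 to 1140 and 1000 to 1100, and over 9 neutrophil markers 76.5 to 83.2, 61 to 81.5, 44.9 to 50.7 and 25.2 to 58.1. Well above background on all 24 arrays were 6 of the 10 B cell, 6 of the 8 type 1 conventional dendritic cell and 4 of the 6 macrophage and monocyte markers, while Itgae, Cd68 and Ly6c2 of these lists did not pass the filter. Their part in the genotype differences of the 10 genes was not tested.

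Likeness was measured as the root mean square difference between 2 genes over the 8 group means, each centred on its own mean, and the 3 named genes with the smallest value are given for each member. H2-K1 was closest to H2-D1 (0.0254), the other classical heavy chain, and after it to Rnf14 and Mapre1. As heavy chain probes may take up signal from each other, the likeness of H2-K1 and H2-D1 may partly reflect the same transcripts. The nearest to B2m were Rictor (0.044), H2-Q10 and 9530068E07Rik, and to Nlrc5 Gvin1 (0.064), Nampt and Tdrd7. Tap2 was nearest to B3gnt5 (0.0357), Pfkp and Zfp189. Tap1 was nearest to Txn1 (0.0596), Nfe2l1 and Acsl5, and Tapbp to BC048507 (0.0529), Mapk6 and Xrn1. Psmb9 was nearest to Psma5 (0.0559), a subunit of the 20S core, with Rbm43 and Larp1, Psmb10 to 9930111J21Rik1 (0.0762), Epsti1 and Rnf34, and Psmb8 to Nmt2 (0.0391), Arfgap3 and Nktr. Erap1 was nearest to Pdia3 (0.0658), of the loading complex, then to Nmt2 and Rab5if. All these values share the same 24 arrays and the same CpG-B step, and ranking by Pearson correlation kept the first gene for B2m, Tap2 and Nlrc5 and changed it for the other 7, although H2-D1 stayed among the first 3 for H2-K1.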

How the data were processed

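RNA of 24 samples was measured on 1-colour (Cy3) Agilent mouse arrays. Per the file headers, the deposited values are spot intensity values from Feature Extraction 10.7.3.1, background-corrected and annotated to mm9. Per the labels, samples fell into 8 groups of 3 biological replicates, and per the file headers each of 3 slides held 1 array of every group. The series' own value table holds log2 values, deposited by the authors and, from a match to the scanner files, centred on each probe's median over the arrays (column medians -0.27 to 0.38), with the scale in use otherwise not given in the sources used here. It served as an alternative.

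Control spots and 4351 spot values with an outlier mark were dropped, repeat spots were averaged per probe (55681 probes), and log2 of the processed signal minus the 75th percentile of each array (303 to 568 intensity units) was used. A probe entered the fit if some group had it well above background on each of its 3 arrays (26638 probes), and a gene was represented by its probe with the highest mean, giving 20208 features, of which 12647 had a gene name. Genes were named through accessions matched to RefSeq tables, and 28919 probes stayed unnamed. One mean per group was fitted over all 24 arrays with limma 3.58.1 (R 4.3.3), with empirical Bayes moderation, 2-sided tests and Benjamini-Hochberg adjustment within each comparison over all features, at 0.05. The fit was also run on simulated data with independent noise and few changed features. The measured CpG-B change was far broader, so the simulation is no check of the calls given here. Deviations of same-slide arrays correlated over 0.1 in all 3 pairs for the CpG-B responses in WT, Irf5-KO and Lyn-KO, and not in all 3 for any of the other 11 comparisons. P-values set each difference against the spread between arrays of the same group, estimated over all 8 groups. How far that spread covers differences between animals is not known, as the labels do not give the animals per culture. The alternatives were quantile normalisation, normexp (offset 50), scaling by the median of detected probes, 2 other filters, the mean over probes, the replicate number (slide) as a block, the series table, a trended and robust prior, only the groups compared, and each array left out.

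The 10 genes and all gene lists were chosen with earlier results of these data known. All 10, Irf5 and Lyn are named, genes of the lists may be named beside the counts of their list, and likeness was ranked over named genes outside the 10. Promoter sequences are from RefSeq (GRCm38.p6).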

Additional observations from a re-analysis of the deposited data

Results flagged for a closer look

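The response to CpG-B differed between genotypes for 2 of the 10 genes, by limma's interaction term. In Irf5-KO 2 of 10 exceeded the WT response, where 7.48% of all features did, and in DKO 1 of 10, where 17.3% did. Tap2, a subunit of the peptide transporter, responded more in Irf5-KO than in WT by 0.64 ± 0.11 on the log2 scale (SE, 3 arrays in each of 4 groups, adjusted p = 0.00041), and more in DKO than in WT by 0.55 ± 0.11 (adjusted p = 0.000671). Within the slides, the excess of Tap2 in Irf5-KO was positive on all 3. Erap1, the trimming aminopeptidase, responded more in Irf5-KO than in WT by 0.43 ± 0.13 (limma adjusted p = 0.0306). That call of Erap1 was lost without Irf5-KO replicate 1 or 3 or WT replicate 1 or 2 among the unstimulated arrays, and without WT replicate 1 or Irf5-KO replicate 2 or 3 among the stimulated ones (adjusted p between 0.0509 and 0.0792), and also with the median of detected probes as the scale (0.0521) and with no filter (0.0895). Without the unstimulated DKO array of replicate 2, the responses of H2-K1 and Nlrc5 also exceeded those in WT, by 0.39 and 0.56 (adjusted p = 0.00551 and 0.00556). Without the stimulated Irf5-KO array of replicate 1, Psmb8 responded more in Irf5-KO than in WT by 0.33 (adjusted p = 0.0138).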

How the results depend on the processing

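No value that was called reversed under any alternative: of 580 called values under alternatives other than leaving out an array, 550 kept their side of the threshold and 30 lost it, and of 366 with an array left out 26 lost it. The calls of Tap2 with CpG-B held throughout. With CpG-B all 10 genes stayed called in Irf5-KO and DKO under every alternative. In WT 9 were called under quantile normalisation, no filter, the trended prior and on leaving out any WT array, and 8 under normexp, and in Lyn-KO 9 under quantile normalisation and normexp. For DKO against WT with CpG-B, 3 genes were called under quantile normalisation and 3 under normexp background correction instead of 7. Unstimulated, normexp gave 1 call for DKO against WT (Psmb10, 0.41), and the replicate block, the series' own value table and a trended, robust prior gave 1 each for DKO against Irf5-KO (Psmb10). For Irf5-KO against WT with CpG-B, normexp, no filter and a fit to only the groups compared left 1 call instead of 2. Quantile normalisation, only probes detected on all arrays, the mean over probes and the replicate block gave 3 there, with Erap1 added. For the response in Irf5-KO against that in WT, scaling by the median of detected probes and no filter left 1 instead of 2. The fit to only the groups compared gave 1 call for DKO against Irf5-KO with CpG-B. With 1 array left out, calls ranged from 9 to 9 for the WT response, 0 to 2 for DKO against Irf5-KO unstimulated, 1 to 3 for Irf5-KO against WT, 6 to 8 for DKO against WT and 4 to 6 for DKO against Lyn-KO with CpG-B, and 1 to 3 for the responses in Irf5-KO and in DKO against WT. Over all features, no filter gave 74 calls instead of 149 (Irf5-KO against WT, unstimulated), 605 instead of 925 (Lyn-KO against WT), 899 instead of 1370 (DKO against WT), 21 instead of 33 (DKO against Lyn-KO), 1393 instead of 2237 (response in Lyn-KO against WT) and 351 instead of 730 (dependence of the Lyn-KO effect on Irf5), where more features were tested. Keeping only probes detected on all arrays gave 21 for DKO against Lyn-KO unstimulated. The fit to only the groups compared, with fewer arrays, gave 1, 321, 529, 0 and 304 for the first 4 of these and the last. Unstimulated counts with an array left out ranged from 46 to 184 (Irf5-KO against WT), fell to 97 or less there without WT replicate 1 or any Irf5-KO replicate, and were 872 without WT replicate 1 and 886 without DKO replicate 1 (DKO against WT), 706 instead of 1081 without Irf5-KO replicate 2 (DKO against Irf5-KO), 593 without Lyn-KO replicate 3 (Lyn-KO against WT), and 20 without Lyn-KO replicate 3 and 54 without DKO replicate 3 (DKO against Lyn-KO). The split into higher and lower moved from 0.317% and 0.421% of features to 0.351% and 0.302% for Irf5-KO against WT unstimulated with the median of detected probes, and from 0.0891% and 0.0742% to 0.099% and 0.0445% for DKO against Lyn-KO with normexp. Arrays with the same replicate number shared a slide and their deviations had a median correlation of 0.0549 (-0.0843 to 0.293), with 25 of 84 pairs over 0.1. All 3 pairs were over 0.1 in 3 of 14 comparisons, the CpG-B responses in WT, Irf5-KO and Lyn-KO, where the block kept 10 of 10 genes called. The replicate block added the calls of single genes given above and changed no other member's call. The cause of these changes was not tested unless given.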

Other observations

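Most of the genes tested from the MHC class II pathway, which presents peptides to CD4+ T cells, fell with CpG-B where the class I genes rose. The list holds presenting chains such as H2-Ab1, and also peptide editors, the invariant chain and Ciita. In WT 7 of the 10 tested fell and none rose (limma), where 37.2% of all features fell, with a median change of -0.99 on the log2 scale against -0.03 for all features. The peptide editors H2-DMa, H2-Oa and H2-DMb1 fell most, by 3.07, 2.62 and 2.57, while H2-Ab1 and the invariant chain Cd74 were at 0.07 and 0.03 without a call. The summed scaled signal of the 10 genes was 1970 to 2430 on unstimulated and 1930 to 1990 on stimulated WT arrays, ranges that overlap. Such a sum is weighted towards the brightest genes. Ciita, which encodes the class II transactivator and is a relative of Nlrc5, fell by 0.50 in WT and rose by 0.47 in DKO. With CpG-B, 8 of the 10 were higher in DKO than in WT, among them H2-DMb1 (1.28) and Ciita (0.81), and 7 of 10 were higher in Irf5-KO than in WT, against 24.9% and 14.4% of all features. Quantile normalisation, normexp background correction and the median of detected probes also gave 7 lower with CpG-B in WT and 8 higher in DKO than in WT.

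Of 8 genes linked to cross-presentation, 3 rose and 5 fell in WT, where 31.2% and 37.2% of all features did. Wdfy4, which conventional dendritic cells need to cross-present, fell by 1.83, and Cybb, a subunit of the phagosomal NADPH oxidase, rose by 0.89. Sec22b, a SNARE of the transport between the endoplasmic reticulum and phagosomes, rose by 0.66. With CpG-B, Cybb was higher in DKO than in WT by 0.52, and Wdfy4 was lower in Irf5-KO than in WT by 0.47.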
